A study of Mus musculus with 12 samples.

Results

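The transforming growth factor-β (TGF-β) ligands Tgfb1, Tgfb2 and Tgfb3, their receptors Tgfbr1, Tgfbr2 and Tgfbr3 and the latent TGF-β binding proteins Ltbp1, Ltbp2, Ltbp3 and Ltbp4 were followed by RNA-seq in inguinal white adipose tissue (iWAT). These 10 genes were taken by symbol from a table of 54134 genes, each matched 1 gene, and all 10 were among the 15585 genes left after a filter on low counts. The mice were male C57BL/6J on a chow diet, injected through the tail vein at 8 weeks of age with 1e12 genome copies of an adeno-associated virus (AAV). In 6 AAV-GFP mice the virus carried green fluorescent protein, and in 6 AAV-Notum mice it carried mouse Notum, a secreted enzyme that inactivates Wnt proteins. The thyroxine binding globulin promoter limited expression to liver, so all 12 mice carried a virus in hepatocytes and no uninfected mouse was included. Tissue was taken 4 weeks after injection, following a 4 h fast. The comparison addressed whether 4 weeks of hepatic NOTUM overexpression went with another level of TGF-β pathway transcripts in iWAT.

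TGF-β is secreted as an inactive complex. The mature dimer stays bound to its own propeptide, and the propeptide is linked by disulfide bonds to a latent TGF-β binding protein, which anchors the complex in the extracellular matrix until integrins, proteases or thrombospondin release the ligand. The freed ligand binds the type II receptor (Tgfbr2), which phosphorylates the type I receptor (Tgfbr1), and SMAD2 and SMAD3 carry the signal to the nucleus. Betaglycan (Tgfbr3) presents ligand, TGF-β2 above all, to the type II receptor. LTBP1, LTBP3 and LTBP4 can bind the latent complex, whereas LTBP2 does not and is a component of microfibrils. In adipose tissue the pathway is known for driving collagen production and for restraining adipocyte differentiation.

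Mice are named by the number in their label (S_2011 to S_2042). Libraries held 15266635 to 21618860 reads in AAV-GFP mice and 14711113 to 17838229 in AAV-Notum mice. Adipocyte transcripts were abundant in all 12 libraries, with 8 adipocyte markers summing to 36942 to 87316 CPM (read counts scaled to a common library size, with edgeR's TMM normalization). Lymphoid transcripts split the mice within a group: 15 lymphocyte markers summed to 18.5 CPM in AAV-GFP S_2011 and 10.01 CPM in AAV-GFP S_2014, to 352.7 CPM in AAV-GFP S_2012, and to between 1332 and 1912 CPM in the 3 other AAV-GFP mice. In AAV-Notum mice the sum ran from 610.9 to 2642 CPM. All 15 of 15 lymphoid markers had a log2 fold change above 0, none passed an unadjusted p of 0.05, and none was at 0 reads in any mouse. The mean log2 CPM of the list gave an exact permutation p of 0.0866 (two-sided, 6 against 6). Of 8 endothelial markers, 7 had a log2 fold change below 0 and 3 (Tek, Tie1 and Esam) passed an unadjusted p of 0.05. Of all genes tested, 9.54% were lower at that p. Liver transcripts also differed among mice: 6 hepatocyte markers summed to 4886 CPM in AAV-GFP S_2013, to 1265 CPM in AAV-GFP S_2014, to between 46.5 and 291.4 CPM in the 4 other AAV-GFP mice and to between 20.4 and 697.5 CPM in AAV-Notum mice. All 6 of 6 had a log2 fold change below 0 (median -2.79), 1 (Alb) passed an unadjusted p of 0.05, and the exact permutation p of their mean log2 CPM was 0.195. Fits without AAV-GFP S_2011 and S_2014, given below, leave out the 2 mice with the fewest lymphoid transcripts. The RNA integrity number was 5.7 in AAV-GFP S_2011, 6.8 in AAV-GFP S_2014, 6.6 to 7.6 in the other 4 AAV-GFP mice and 6.9 to 7.4 in AAV-Notum mice, so 1 of the 2 mice with the fewest lymphoid transcripts also had the lowest RNA integrity. Notum itself had 1 to 17 reads in AAV-GFP mice and 9, 560, 10, 16, 433 and 8 reads in the AAV-Notum mice. This gave a log2 fold change of 4.64 (edgeR unadjusted p = 0.00412 and adjusted p = 0.168), and the mice with 560 and 433 reads, AAV-Notum S_2032 and S_2041, also had the highest hepatocyte marker sums of their group (126.2 and 697.5 CPM). The other 4 AAV-Notum mice lay within the AAV-GFP range, so Notum reads in iWAT bear on the labels of 2 AAV-Notum mice and leave those of the other 4 unchecked.

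**Figure D1:**
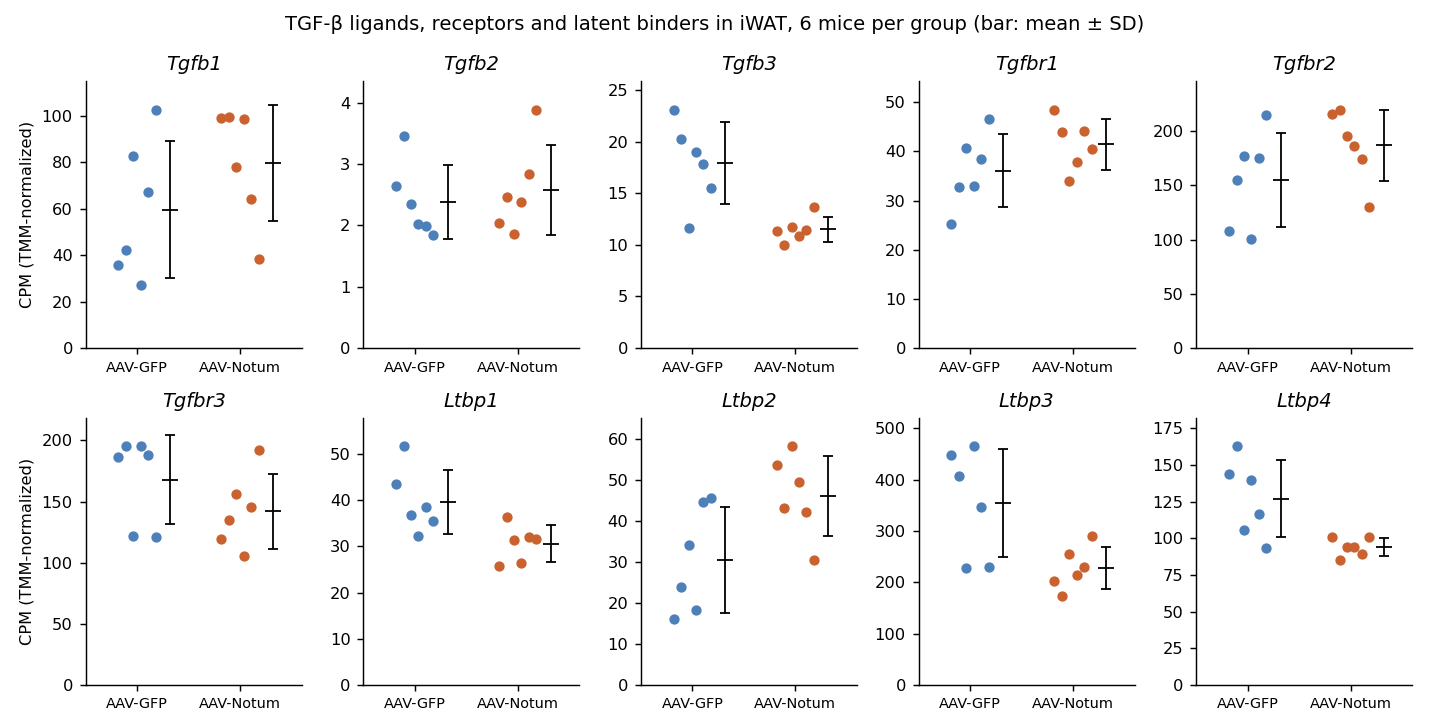
Levels of the 10 genes in CPM (TMM-normalized, linear axis from 0), one point per mouse and one panel per gene, with the mean ± SD of 6 mice beside the points. Means were lower in AAV-Notum mice for Tgfb3, Tgfbr3, Ltbp1, Ltbp3 and Ltbp4 and higher for the other 5 genes, and in no panel were the groups fully apart.

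At an unadjusted p of 0.05 in edgeR's quasi-likelihood test, 4 of the 10 genes were lower in AAV-Notum mice (Tgfb3, Ltbp1, Ltbp3 and Ltbp4), where 9.54% of all genes tested were, and 1 was higher (Ltbp2), where 4.64% of all genes were. None of the 10 passed an adjusted p of 0.05 over the 15585 genes, at which 0.0513% of genes were lower and 0.00% higher. DESeq2 in place of edgeR called 1 of the 10, Tgfb3, with an adjusted p of 0.00824, against 2.32% of genes called lower and 0.531% called higher by that tool. Without AAV-GFP S_2011 and S_2014, 3 of the 10 genes were lower at an unadjusted p of 0.05 and 0 were higher, beside 4.95% and 2.16% of the 15994 genes tested in that fit. For no member was every AAV-Notum mouse below every AAV-GFP mouse (0.693% of all genes) or above (0.398%). In bulk tissue, fewer cells of a type and less RNA per cell cannot be told apart in any of these values.

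Among the ligands, Tgfb1 (ENSMUSG00000002603) had the highest level per kilobase of exon. It lies on chromosome 7 of GRCm38 (25687002 to 25705077, plus strand), and TGF-β1 is the isoform made widely by immune cells, platelets and stroma. The AAV-GFP mice had 27.4, 35.9, 42.2, 67.1, 82.7 and 102.8 CPM, and the AAV-Notum mice 38.5, 64.1, 77.9, 98.8, 99.2 and 99.8 CPM. The highest single mouse was an AAV-GFP animal (S_2022), and 5 of 6 AAV-Notum animals exceeded the AAV-GFP mean. Means were 59.7 ± 29.5 and 79.7 ± 24.9 CPM (SD, n = 6 each), a difference no larger than the variation among animals (log2 fold change 0.42, standard error, SE, 0.33, 95% interval -0.31 to 1.14, exact permutation p = 0.208). The lowest AAV-GFP values belonged to S_2014 and S_2011, and the lowest AAV-Notum value to S_2042, which are also the mice with the fewest lymphoid transcripts in their groups. Without AAV-GFP S_2011 and S_2014 the log2 fold change of Tgfb1 was 0.11, and -0.11 once the lymphoid marker score (mean log2 CPM of the 15 markers) entered as a covariate.

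Tgfb2 (ENSMUSG00000039239, chromosome 1, 186622792 to 186705989, minus strand) was scarce, with 28 to 60 reads per mouse, the fewest of the 10 members. Its lowest, median and highest levels were 1.85, 2.18 and 3.45 CPM in AAV-GFP mice and 1.86, 2.42 and 3.88 CPM in AAV-Notum mice. The ranges nearly coincided. The log2 fold change was 0.11 (SE 0.22, 95% interval -0.36 to 0.58, exact permutation p = 0.608), and leaving out AAV-Notum S_2042, the highest mouse, turned it to -0.04.

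Tgfb3 (ENSMUSG00000021253, chromosome 12, 86056745 to 86079041, minus strand) had the smallest p of the 10 genes. TGF-β3 is the isoform best known from palate closure and from connective tissue. Its levels were 11.6, 15.5, 17.8, 19.0, 20.2 and 23.1 CPM in AAV-GFP mice and 9.95, 10.9, 11.4, 11.4, 11.7 and 13.7 CPM in AAV-Notum mice. The AAV-Notum mice formed a narrow band, 4 of them below every AAV-GFP mouse and 5 AAV-GFP mice above every AAV-Notum mouse, with AAV-GFP S_2013 alone inside the AAV-Notum range. Means were 17.9 ± 3.96 and 11.5 ± 1.23 CPM (SD, n = 6 each). The log2 fold change was -0.64 (SE 0.15, 95% interval -0.96 to -0.32, edgeR unadjusted p = 9.74e-04 and adjusted p = 0.130), and the exact permutation p was 0.00649, where 6 mice against 6 allow no less than 0.00217. Every fit that left out 1 mouse kept the unadjusted p of Tgfb3 under 0.05, with log2 fold changes from -0.73 to -0.55. The adjusted p passed 0.05 in 1 of those fits, at 0.0454 without AAV-GFP S_2013 (the mouse with the most hepatocyte transcripts), and over all alternatives it ran from 0.00824 with DESeq2 to 0.518 without AAV-GFP S_2011 and S_2014. Without AAV-GFP S_2011 and S_2014, 2 of the 3 highest mice, the log2 fold change was -0.50 (unadjusted p = 0.00597, exact permutation p = 0.0143 with 4 mice against 6).

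Relative to each other, Tgfb1 made up 71.2 ± 13.3% of ligand CPM in AAV-GFP mice and 83.5 ± 7.71% in AAV-Notum mice (SD, n = 6 each), and Tgfb3 25.5 ± 12.0% and 13.4 ± 5.78%. These shares are descriptions and carry no test. In reads, not scaled to length, Tgfb1 exceeded Tgfb3 between 1.44 and 7.11 times in AAV-GFP mice and between 2.82 and 10.03 times in AAV-Notum mice. The lowest AAV-GFP ratios were those of S_2014 and S_2011, and the lowest AAV-Notum ratio that of S_2042, so within both groups the ratio was lowest in the mice with the fewest lymphoid transcripts. The part of lymphoid cells in this ratio was not tested.

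Receptor transcripts did not pass the test in either direction. Tgfbr1 (ENSMUSG00000007613, chromosome 4, 47353222 to 47414931, plus strand), the type I kinase, ran from 25.3 to 46.5 CPM (median 35.8) in AAV-GFP mice and from 33.9 to 48.5 CPM (median 42.2) in AAV-Notum mice, for a log2 fold change of 0.20 (SE 0.14, 95% interval -0.10 to 0.50, exact permutation p = 0.175). The unadjusted p from edgeR was 0.0495 when AAV-GFP S_2022, the highest AAV-GFP mouse, was left out. For Tgfbr1 the log2 fold change was 0.07 without AAV-GFP S_2011 and S_2014, 0.02 with the lymphoid score as a covariate and 0.10 when adjusted for RNA integrity. Tgfbr2 (ENSMUSG00000032440, chromosome 9, 116084293 to 116175360, minus strand), the ligand-binding type II kinase, ran from 100.6 to 214.3 CPM (median 164.8) and from 130.3 to 219.6 CPM (median 190.9). AAV-GFP S_2014 and S_2011, at 100.6 and 107.7 CPM, were below all other mice, and the other 4 AAV-GFP mice, at 155.0 to 214.3 CPM, lay within the AAV-Notum range. The log2 fold change of Tgfbr2 was 0.27 (SE 0.19, 95% interval -0.14 to 0.69, exact permutation p = 0.180), it was 0.05 without those 2 mice, 0.14 when adjusted for RNA integrity and -0.06 with the lymphoid score. Tgfbr3 (ENSMUSG00000029287, chromosome 5, 107106570 to 107289629, minus strand), encoding betaglycan, took the opposite sign. It ran from 121.1 to 195.2 CPM (median 187.3) in AAV-GFP mice and from 105.5 to 192.5 CPM (median 140.0) in AAV-Notum mice, with a log2 fold change of -0.24 (SE 0.17, 95% interval -0.62 to 0.13, exact permutation p = 0.208). AAV-GFP S_2013 and S_2022, at 122.0 and 121.1 CPM, lay apart from the other 4 AAV-GFP mice, which were all above 186 CPM. For Tgfbr3 the log2 fold change was -0.14 without AAV-GFP S_2011 and S_2014 and -0.02 with the lymphoid score.

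Of the latent TGF-β binding proteins, 3 of 4 were lower at an unadjusted p of 0.05 and the fourth was higher. Over all genes tested, 9.54% were lower and 4.64% higher at that p. Promoters of the lower genes Ltbp1, Ltbp3 and Ltbp4 are shown because these genes passed in the same direction, and that of Tgfb1 because its fold change had the other sign. RefSeq on GRCm38.p6 gave promoters for 8 of the 10 genes (Tgfb3 and Tgfbr3 were not matched). The 250 bases before the annotated start are printed 5′ to 3′ on the gene's strand. Capitals mark matches to the SMAD half-site CAGAC or to the GC box GGGCGG, on either strand, so that GTCTG and CCGCCC are the same letters read from the other strand. Ltbp1 is from chr17:75005279-75005528, Ltbp3 from chr19:5740650-5740899 and Tgfb1 from chr7:25686752-25687001, all on the plus strand, and Ltbp4 from chr7:27337613-27337862 on the minus strand. For Ltbp1, with 2 annotated starts, and Ltbp4, with 3, the window of the most upstream start is shown.

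Ltbp1: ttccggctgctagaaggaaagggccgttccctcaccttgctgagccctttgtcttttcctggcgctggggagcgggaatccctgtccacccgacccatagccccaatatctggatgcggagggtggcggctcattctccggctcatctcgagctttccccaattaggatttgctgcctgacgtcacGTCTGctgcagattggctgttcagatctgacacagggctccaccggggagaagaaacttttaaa

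Ltbp3: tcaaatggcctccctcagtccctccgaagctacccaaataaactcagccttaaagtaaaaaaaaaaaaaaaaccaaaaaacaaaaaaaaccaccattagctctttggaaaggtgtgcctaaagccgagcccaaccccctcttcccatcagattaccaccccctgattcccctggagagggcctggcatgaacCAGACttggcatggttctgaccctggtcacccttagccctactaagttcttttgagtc

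Ltbp4: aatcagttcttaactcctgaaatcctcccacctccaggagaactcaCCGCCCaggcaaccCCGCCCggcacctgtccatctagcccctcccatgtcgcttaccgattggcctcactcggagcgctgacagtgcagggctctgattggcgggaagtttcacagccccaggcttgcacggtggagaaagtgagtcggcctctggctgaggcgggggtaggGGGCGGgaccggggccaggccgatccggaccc

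Tgfb1: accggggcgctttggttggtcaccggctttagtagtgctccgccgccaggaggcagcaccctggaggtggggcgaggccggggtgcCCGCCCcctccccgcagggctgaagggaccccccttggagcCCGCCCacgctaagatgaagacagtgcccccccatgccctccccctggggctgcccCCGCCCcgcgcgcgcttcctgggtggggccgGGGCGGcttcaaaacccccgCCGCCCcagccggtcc

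The printed windows of Ltbp1 and Ltbp3 each held 1 CAGAC match, 64 and 58 bases before the start, and no GGGCGG. The second Ltbp1 window (chr17:75178531-75178780) held 2 CAGAC matches and no GGGCGG. The 3 Ltbp4 windows, of which 2 overlap, held no SMAD half-site and 3 to 7 GGGCGG matches, and the Tgfb1 window held 5 GGGCGG matches and no SMAD half-site. Of the members whose fold changes were above 0, Tgfb2 and Ltbp2 had 2 CAGAC matches each, Tgfbr2 had 1, and Tgfbr1 had 1 in one of its 2 windows, so neither motif was limited to genes of one direction. The letters CAGAC occur in 42.2% and GGGCGG in 32.7% of the 32817 windows of that length in the same table, so such matches are common. The TCF/LEF motif CTTTGA (13.8% of windows) and the AP-1 motif TGANTCA (6.75% of windows) were searched on both strands and their letters were in none of the windows of the 8 matched genes. GC content of the printed windows was 56.8% for Ltbp1, 47.2% for Ltbp3, 64.4% for Ltbp4 and 75.2% for Tgfb1. A match is a description of the letters and not a binding site.

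Ltbp1 (ENSMUSG00000001870, chromosome 17, 75005568 to 75392512, plus strand) tethers latent TGF-β to fibrillin and fibronectin. The AAV-GFP mice had 32.2, 35.6, 36.7, 38.4, 43.5 and 51.7 CPM and the AAV-Notum mice 25.8, 26.4, 31.4, 31.5, 32.1 and 36.5 CPM. All but 1 AAV-Notum mouse (S_2032) were below every AAV-GFP mouse. The mean was 39.7 ± 6.96 CPM (SD, n = 6) against 30.6 ± 3.97 CPM (SD, n = 6), which is a log2 fold change of -0.38 (SE 0.12, 95% interval -0.64 to -0.11, edgeR unadjusted p = 0.0100 and adjusted p = 0.221, exact permutation p = 0.0108). Of the 4 lower members, Ltbp1 moved least when lymphoid transcripts were taken into account. Its log2 fold change was -0.36 (unadjusted p = 0.0264 from edgeR) with the lymphoid score as a covariate and -0.41 (unadjusted p = 0.00999) without AAV-GFP S_2011 and S_2014, and the lowest AAV-GFP level was that of S_2014.

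Ltbp3 (ENSMUSG00000024940, chromosome 19, 5740904 to 5758532, plus strand), which is needed for secretion of latent TGF-β in bone and teeth, had the highest mean RPKM of the 10 genes, as given below. Levels were 227.9, 230.2, 345.9, 406.2, 448.6 and 464.9 CPM in AAV-GFP mice and 172.3, 202.4, 213.5, 230.0, 255.7 and 289.5 CPM in AAV-Notum mice. The AAV-GFP mice were in separate positions, with S_2013 and S_2022 among the AAV-Notum mice and the other 4 above all of them. Means were 353.9 ± 105.1 and 227.2 ± 41.3 CPM (SD, n = 6 each), a log2 fold change of -0.64 (SE 0.20, 95% interval -1.08 to -0.20, edgeR unadjusted p = 0.00774 and adjusted p = 0.212, exact permutation p = 0.0260). The highest AAV-GFP levels were those of S_2014 and S_2011, and the highest AAV-Notum level that of S_2042. Without AAV-GFP S_2011 and S_2014 the log2 fold change was -0.41 and no longer passed (unadjusted p = 0.0579 from edgeR, exact permutation p = 0.110), and with the lymphoid score as a covariate it was -0.26 (unadjusted p = 0.0852).

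Ltbp4 (ENSMUSG00000040488, chromosome 7, 27305136 to 27337692, minus strand) is bound to elastic fibres and is required for their assembly. The AAV-GFP mice had 93.3, 105.6, 116.5, 139.9, 144.2 and 162.8 CPM, and the AAV-Notum mice kept to a band from 85.3 to 101.1 CPM with a median of 94.1 CPM. Of the AAV-GFP mice, 5 were above every AAV-Notum mouse. The log2 fold change was -0.43 (SE 0.13, 95% interval -0.71 to -0.16, edgeR unadjusted p = 0.00475 and adjusted p = 0.175, exact permutation p = 0.0130). It was -0.35 (unadjusted p = 0.0300) without AAV-GFP S_2011 and S_2014 and -0.24 (unadjusted p = 0.0490) with the lymphoid score.

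**Figure D2:**
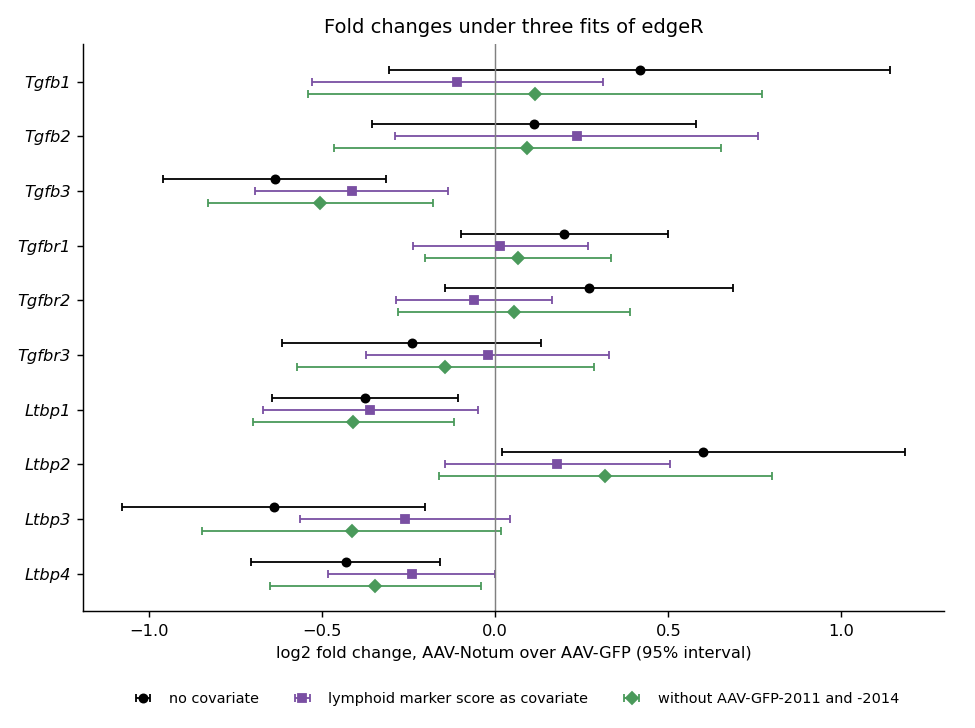
Log2 fold change of each gene, AAV-Notum over AAV-GFP, with its 95% interval from edgeR, for the fit with no covariate (circles), with the lymphoid score as covariate (squares) and without AAV-GFP S_2011 and S_2014 (diamonds). The intervals of Tgfb3, Ltbp1 and Ltbp4 stayed below 0 in all 3 fits, and those of Ltbp2 and Ltbp3 crossed 0 in 2 of them.

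Ltbp2 (ENSMUSG00000002020, chromosome 12, 84783212 to 84876532, minus strand) was the one member higher in AAV-Notum mice at an unadjusted p of 0.05 (Tgfb1, Tgfb2, Tgfbr1 and Tgfbr2 also had log2 fold changes above 0, without passing). Levels were 16.2, 18.2, 23.8, 34.2, 44.6 and 45.7 CPM in AAV-GFP mice and 30.6, 42.1, 43.2, 49.5, 53.7 and 58.3 CPM in AAV-Notum mice. Each of the 6 AAV-Notum animals exceeded the AAV-GFP mean of 30.5 ± 13.0 CPM (SD, n = 6), and their own mean was 46.2 ± 9.82 CPM (SD, n = 6). The log2 fold change was 0.60 (SE 0.27, 95% interval 0.02 to 1.18, edgeR unadjusted p = 0.0440 and adjusted p = 0.338), whereas the exact permutation p was 0.0519. The call held in 3 of 12 fits that left out 1 mouse (those without AAV-GFP S_2021, AAV-GFP S_2022 or AAV-Notum S_2042), and without AAV-GFP S_2011 and S_2014 the log2 fold change was 0.32 (unadjusted p = 0.172). A fit that adjusted for RNA integrity gave 0.44 (unadjusted p = 0.0719).

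For Ltbp2 the 2 deposited tables also disagreed. The normalized values could be turned back to whole reads (100% of values, within a tolerance of 0.02 reads that was wider for larger counts). Over the 12 mice Ltbp2 had 8079 reads in the raw table and 15674 behind the normalized one, 1.94 times as many. For Ltbp2 the ratio ran from 1.36 in AAV-Notum S_2031 to 4.55 in AAV-GFP S_2014, and the 2 next highest ratios were 3.36 (AAV-GFP S_2011) and 3.06 (AAV-GFP S_2012). In the raw table AAV-GFP mice had 289 to 967 reads and AAV-Notum mice 472 to 1056, while behind the normalized table they had 972 to 2074 and 1163 to 1523. On the authors' log2 scale the medians were 10.2 and 10.3, with a log2 difference of 0.11 (unadjusted p = 0.451 from limma, exact permutation p = 0.474), so the higher level of Ltbp2 was found in 1 table only. Among 15548 tested genes in both tables, 197 (1.27%) had over 1.5 times as many reads behind the normalized values. Of the other members, Tgfb3 had 0.909 times and Ltbp3 0.967 times as many reads there, and the remaining 7 from 1.01 to 1.02 times. The antisense gene D030025P21Rik shares 764 bases of exon with Ltbp2 and had 0 to 11 reads per mouse in the raw table. Whether counting used strand is not given in the sources used here, and the source of the difference was not tested.

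**Figure D3:**
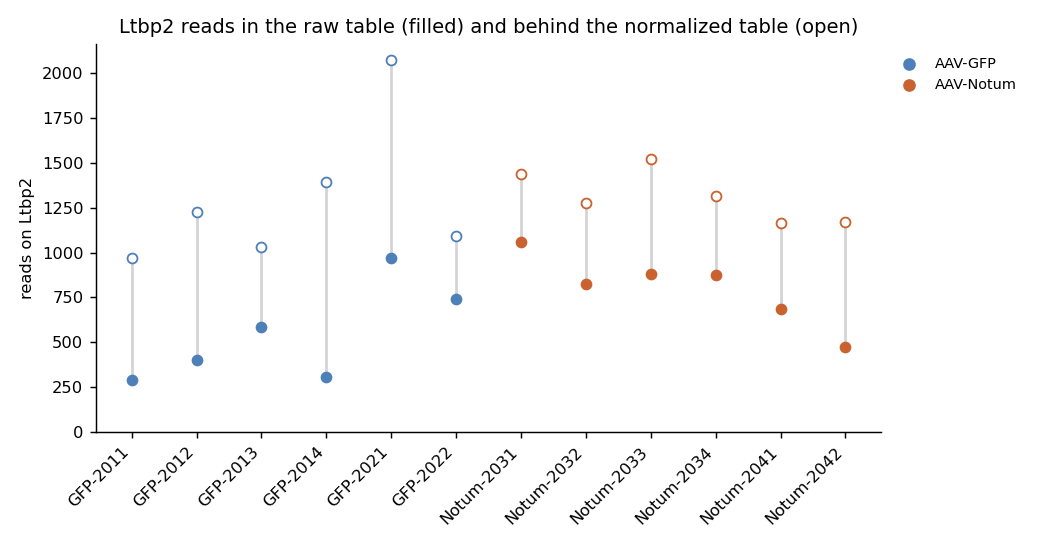
Reads on Ltbp2 in each mouse, from the raw count table (filled) and recovered from the normalized table (open), with a line joining the values of a mouse and a linear axis from 0. The gap was widest relative to the raw count in AAV-GFP S_2014, and every mouse had more reads behind the normalized table.

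Exon overlap with other genes also touched Tgfb3 (257 bases with Gm48008 and 163 with Gm37804) and Tgfb2 (124 bases with Gm29491), on the opposite strand, and Tgfbr3 (297 bases with Gm43422 on the same strand). Reads from these stretches cannot be assigned with certainty.

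Per kilobase of exon (RPKM, CPM over the merged exon length of GENCODE vM21), the AAV-GFP means were in the order Ltbp3 39.0, Tgfbr3 25.7, Ltbp4 19.7, Tgfbr2 18.9, Tgfb1 11.8, Tgfbr1 5.53, Tgfb3 5.29, Ltbp2 3.72, Ltbp1 3.71 and Tgfb2 0.41. Neighbours in this order overlapped over the 6 mice in 8 of 9 pairs, and Tgfb2 stood below Ltbp1 with no overlap. In AAV-Notum mice the RPKM order began with Ltbp3 at 25.1, Tgfbr2 at 22.8 and Tgfbr3 at 21.7, followed by Tgfb1 at 15.8, Ltbp4 at 14.6, Tgfbr1 at 6.35, Ltbp2 at 5.65, Tgfb3 at 3.40, Ltbp1 at 2.86 and Tgfb2 at 0.44. There 7 of 9 neighbouring pairs overlapped, the exceptions being Ltbp4 above Tgfbr1 and Ltbp1 above Tgfb2. Transcripts for storage of the ligand (Ltbp3, Ltbp4) and for its receptors (Tgfbr2, Tgfbr3) were thus above those of all 3 ligands in mean RPKM in AAV-GFP mice, and in AAV-Notum mice Tgfb1 came before Ltbp4.

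Several members were at an end of their group's range in the mice with the fewest lymphoid transcripts. In AAV-GFP S_2011 and S_2014, the mice with the fewest, Tgfb1 was at 35.9 and 27.4 CPM against 42.2 to 102.8 CPM in the other 4 AAV-GFP mice. Ltbp2 was at 16.2 and 18.2 CPM against 23.8 to 45.7 CPM. Ltbp3 was on the other side, at 448.6 and 464.9 CPM against 227.9 to 406.2 CPM. Among AAV-Notum mice, S_2042 had the fewest lymphoid transcripts, and it was lowest of its group in Tgfb1 (38.5 against 64.1 to 99.8 CPM), Tgfbr2 (130.3 against 173.8 to 219.6 CPM) and Ltbp2 (30.6 against 42.1 to 58.3 CPM). The same mouse was highest of its group in Tgfb3 (13.7 against 9.95 to 11.7 CPM), Ltbp3 (289.5 against 172.3 to 255.7 CPM) and Tgfbr3 (192.5 against 105.5 to 155.8 CPM). AAV-Notum S_2042 also had the highest sums of adipocyte markers (87316 CPM) and skeletal muscle markers (3355 CPM) of all mice. With the lymphoid score as a covariate, Tgfb3 (log2 fold change -0.41, unadjusted p = 0.00699), Ltbp1 and Ltbp4 were still lower at an unadjusted p of 0.05 in edgeR, where 4.86% of all genes were lower and 4.23% higher, and Ltbp3 and Ltbp2 did not pass. The log2 fold change of Ltbp2 was then 0.18 (unadjusted p = 0.253), against 0.60 with no covariate. With the endothelial score as a covariate, an alternative chosen after the data were seen, Tgfb3 (log2 fold change -0.40, unadjusted p = 0.00510), Ltbp3 (-0.24, unadjusted p = 0.0492) and Ltbp4 (-0.20, unadjusted p = 0.0406) passed and Ltbp1 (-0.27, unadjusted p = 0.0641) did not, and 0 members were higher, where 5.31% of all genes were lower and 7.26% higher.

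**Figure D4:**
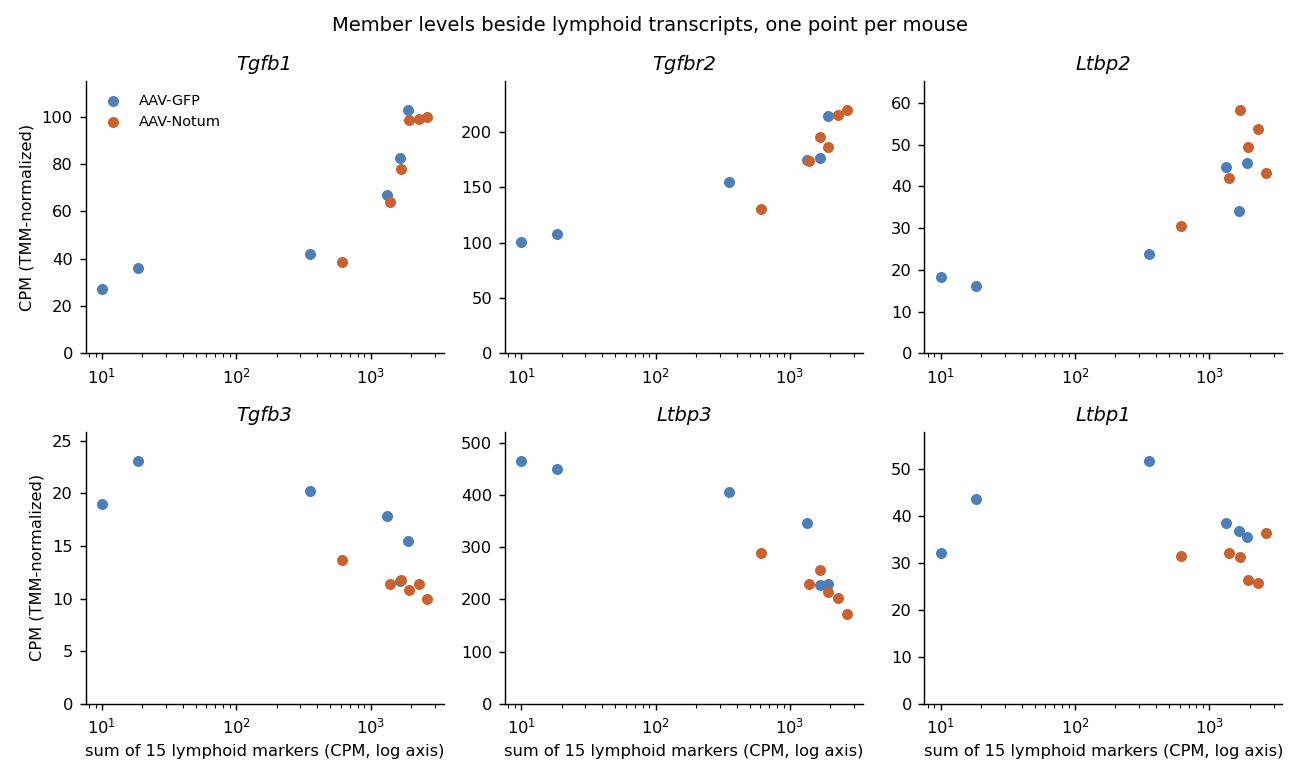
Level of 6 genes in each mouse (CPM, linear axis from 0) against the summed CPM of 15 lymphoid markers in the same mouse (log axis), AAV-GFP in blue and AAV-Notum in orange. Tgfb1, Tgfbr2 and Ltbp2 were lowest in the mice with the fewest lymphoid transcripts and Ltbp3 was highest there, while 5 of 6 AAV-Notum mice lay below every AAV-GFP mouse for Ltbp1.

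The nearest profiles to that of Tgfb3 over the 12 mice, by root mean square difference of centred log2 CPM, were those of Notch4 (0.10), App (0.11) and Tanc2 (0.12). Notch4 is an endothelial Notch receptor and App encodes the amyloid precursor protein. Mean levels were 40.6 ± 9.45 and 26.2 ± 3.40 CPM for Notch4 in AAV-GFP and AAV-Notum mice, 371.7 ± 85.1 and 256.0 ± 24.6 CPM for App, and 22.7 ± 4.23 and 15.3 ± 1.37 CPM for Tanc2 (SD, n = 6 each).

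Of the wider pathway, 60 genes in 4 lists were tested. At an unadjusted p of 0.05, 20 (33.3%) were lower in AAV-Notum mice, beside 9.54% of all genes, and 0 were higher. Their median log2 fold change was -0.24, against 0.01 over all genes tested, and without AAV-GFP S_2011 and S_2014 18 were lower and 0 higher, where 4.95% and 2.16% of all genes were. The lists hold collagens and other matrix genes that were known to be low in these libraries when the lists were written, so their counts are descriptions. Markers of stromal cells and macrophages moved in part with them. Of 8 fibroblast and progenitor markers, 6 had a log2 fold change below 0 and 1 passed an unadjusted p of 0.05 (Pdgfra, -0.49), and their summed level ran from 858.3 to 1521 CPM in AAV-GFP mice and from 897.7 to 1028 CPM in AAV-Notum mice. Of 8 smooth muscle and pericyte markers, 4 were below 0 and 2 passed (Notch3, -0.33, and Acta2, which is also on the list of induced genes), with sums of 437.9 to 663.6 CPM and 437.4 to 647.6 CPM. Of 10 macrophage markers, 6 were below 0 and 2 passed (Mrc1, -0.40, and Cd163, -0.94, the latter with every AAV-Notum mouse below every AAV-GFP mouse), with sums of 515.6 to 1588 CPM and 916.8 to 1749 CPM. The part of these cells in the pathway counts was not tested.

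Of the 4 lists, the SMADs and their partners had the smallest share of lower genes, with 2 of 15 genes (13.3%) lower, beside 9.54% of all genes, and a median log2 fold change of -0.05. Smad2 (43.3 ± 2.65 and 44.2 ± 3.37 CPM), Smad3 (50.2 ± 8.92 and 50.9 ± 1.95 CPM) and Smad4 (60.1 ± 5.14 and 58.3 ± 7.19 CPM; SD, n = 6 each), which transmit the signal, had log2 fold changes of 0.03, 0.02 and -0.04. The genes that passed were Pmepa1, a target gene that restrains SMAD activation and sits on the list of induced genes too, and Ski, a SMAD co-repressor. Pmepa1 had 168.6 to 244.4 CPM in AAV-GFP mice and 57.7 to 187.5 CPM in AAV-Notum mice (log2 fold change -0.99, SE 0.26, edgeR adjusted p = 0.152). Ski had 117.4 to 139.0 CPM and 102.5 to 118.5 CPM (log2 fold change -0.20, SE 0.06, edgeR adjusted p = 0.221).

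Of the genes that store or activate the latent complex, 5 of 17 tested (29.4%) were lower at an unadjusted p of 0.05. Over all genes tested the share was 9.54%, and Itgb6 was too low to test. Thbs1, encoding thrombospondin-1, an activator of latent TGF-β, had 28.7 to 166.1 CPM in AAV-GFP mice and 12.6 to 29.1 CPM in AAV-Notum mice, with a log2 fold change of -1.50 (SE 0.43, edgeR adjusted p = 0.170). Lrrc32, encoding GARP, which holds latent TGF-β at the cell surface, had a log2 fold change of -0.42. The integrin subunits Itgb5 and Itgb1 had -0.72 and -0.31, and the fifth gene was Furin, the protease that cleaves the propeptide. The fibrillin Fbn1, which LTBPs bind in the matrix, had 91.1 ± 20.7 and 74.9 ± 19.8 CPM (SD, n = 6 each, log2 fold change -0.28, exact permutation p = 0.167).

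Among co-receptors, related receptors and extracellular binders, 5 of 10 (50%) were lower at an unadjusted p of 0.05, beside 9.54% of all genes. Htra3, a secreted protease that can inhibit TGF-β family signaling, had 180.2 to 491.4 CPM in AAV-GFP mice and 145.2 to 205.9 CPM in AAV-Notum mice (log2 fold change -1.03, SE 0.23, edgeR adjusted p = 0.117). The endothelial receptor pair Acvrl1 and Eng had log2 fold changes of -0.49 and -0.57 (adjusted p = 0.124 and 0.214 from edgeR), beside the 3 endothelial markers that also passed. Dcn, the proteoglycan decorin, which binds TGF-β, had -0.39, and the fifth gene was Vasn.

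Of the genes known to be induced by TGF-β, 9 of 22 (40.9%) were lower at an unadjusted p of 0.05. The share over all genes was 9.54%. Lox, the collagen cross-linking enzyme, had 54.7 to 139.5 CPM in AAV-GFP mice and 33.8 to 54.2 CPM in AAV-Notum mice. Every AAV-Notum mouse was thus below every AAV-GFP mouse, as for 0.693% of all genes. The log2 fold change of Lox was -1.13 (SE 0.20, edgeR adjusted p = 0.0847). Col5a1 had a log2 fold change of -0.68 (adjusted p = 0.152), and others were Pmepa1, Col1a1, Col1a2, Col3a1, Acta2 and Snai1. Of the 22 genes, 17 had a log2 fold change below 0. Among those that did not pass, the values were -0.77 for Nox4, -0.36 for Ctgf, -0.30 for Tagln, -0.23 for Klf10, -0.02 for Fn1 and -4.80e-03 for Tgfbi, and those above 0 included Postn at 0.46, Smad7 at 0.34 and Skil at 0.21.

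**Figure D5:**
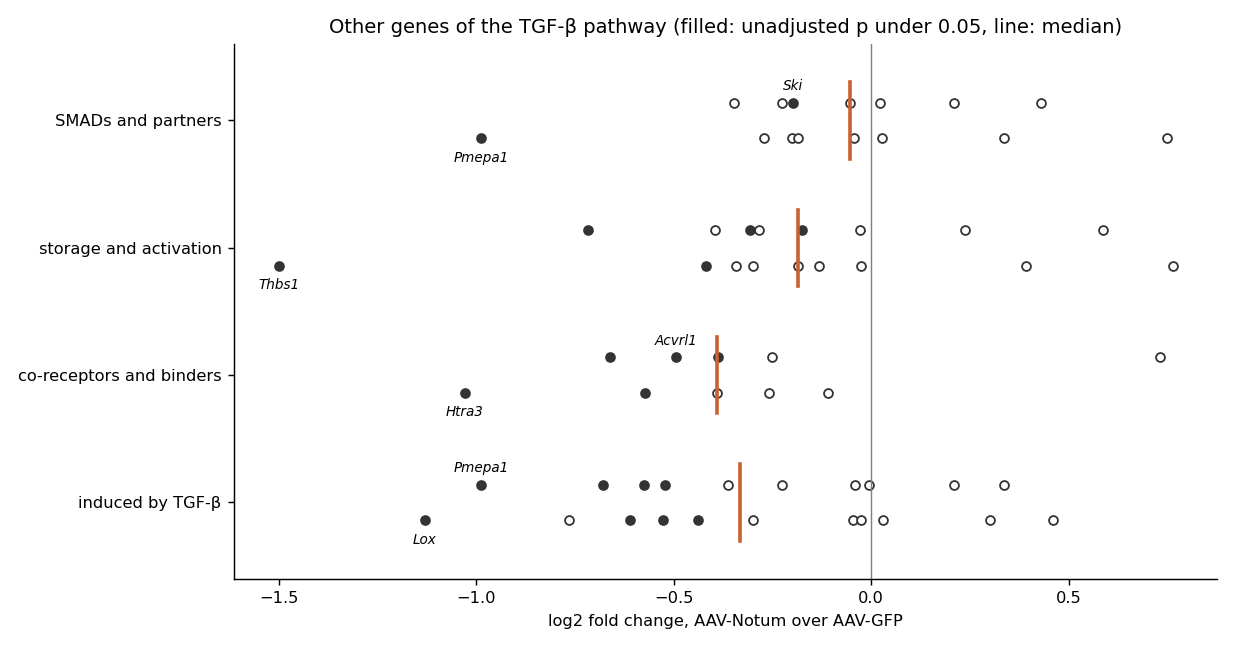
Log2 fold change (AAV-Notum over AAV-GFP) of tested genes of 4 TGF-β pathway lists, one point per gene, filled where the unadjusted p from edgeR was under 0.05, with an orange line at the median of each list. All filled points lie below 0, and Pmepa1, Smad7, Skil and Fn1 are on 2 lists.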

How the data were processed

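RNA-seq of iWAT from 12 mice was analysed. Per the paper's methods and the labels, the authors prepared TruSeq libraries, sequenced 50 bp single-end reads, mapped them to mm10 with STAR 2.3.1 and compared groups with DESeq2. The deposited tables hold raw counts per gene, and log2 values, which the authors made by dividing reads by a size factor per mouse and adding 1. The counting program and annotation are not given in the sources used here. Raw counts were filtered with filterByExpr of edgeR 4.0.16 (minimum count 10, minimum total 15), normalized with TMM and tested with glmQLFit and glmQLFTest over all 15585 genes with Benjamini-Hochberg adjustment (R 4.3.3). Exact permutation tests were two-sided, on mean log2 CPM (prior count 2) over all 924 assignments of mice. Total counts were 14711113 to 21618860 per mouse, and few reads, as for Tgfb2, mean more counting error. Each mouse is a separate animal. The fits were tested on simulated data. Positions are from GENCODE vM21 of GRCm38, the assembly also called mm10, and promoters from RefSeq on GRCm38.p6.

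The members and lists were chosen with earlier results of these data known. The genes named are the 10 members, Notum, the genes of each pathway list at an unadjusted p under 0.05 (at most the 4 of smallest p per direction and list), and the 3 nearest profiles to the member of smallest p. Marker genes, D030025P21Rik and other overlapping genes, Smad2, Smad3, Smad4, Smad7, Skil, Fbn1, Fn1, Tgfbi, Nox4, Ctgf, Tagln, Klf10, Postn, Itgb6, Furin, Vasn, Col1a1, Col1a2, Col3a1, Acta2 and Snai1 are outside that rule and were added once their values were known. The alternatives tried were DESeq2 1.42.0, limma-voom (limma 3.58.1), RLE size factors, 2 other filters on low counts, a robust fit, the RNA integrity number, the lymphoid or (added later) the endothelial marker score as a covariate, limma on the deposited normalized values, a prior count of 0.5, each mouse left out, and AAV-GFP S_2011 and S_2014 left out. RNA of AAV-GFP S_2012 was isolated 22 days after collection and that of the others 2 days after, so that batch holds 1 mouse and was examined by leaving it out. Some items are not reported here, though the counts and medians of the lists include them. Figures were drawn with matplotlib 3.10.9.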

Additional observations from a re-analysis of the deposited data

How the results depend on the processing

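Of 230 member fold changes under 23 alternatives, 207 kept their direction and their side of an unadjusted p of 0.05. Tgfb3 passed that threshold in all of them. The direction turned for Tgfb1 with the lymphoid score (-0.11) and with the endothelial score (-0.12), for Tgfbr2 with the lymphoid score (-0.0618), for Tgfbr3 with the endothelial score (0.0482) and for Tgfb2 without AAV-Notum S_2042 (log2 fold change -0.0429, with 0.247 without AAV-GFP S_2012 at the other end), and none of these members passed the threshold to begin with. The cause was not tested. The number of members higher at an unadjusted p, 1 with no covariate, was 0 with the RNA integrity number, the lymphoid score or the endothelial score, with the authors' normalized values and without AAV-GFP S_2011 and S_2014, and 0 to 2 with 1 mouse left out. The number of members lower stayed at 4 in all 12 fits with 1 mouse left out. The number of members past an adjusted p was 1 with DESeq2 and 0 to 1 with 1 mouse left out, the exception being AAV-GFP S_2013.

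Over all genes tested, 8 were lower and 0 higher at an adjusted p of 0.05 (1487 lower and 723 higher at an unadjusted p). DESeq2 gave 367 lower and 84 higher, RLE size factors 13 and 1, a filter of at least 10 counts in every mouse 14 and 1. The number lower was 5 with a filter of at least 1 count, 4 with the lymphoid score, 3 with the endothelial score, 4 with the authors' normalized values and 1 without AAV-GFP S_2011 and S_2014. With 1 mouse left out, it ran from 1 (without AAV-Notum S_2033) to 146 (without AAV-GFP S_2022), and the number higher from 0 to 12. The 20 lower genes of the pathway lists were 17 to 22 with 1 mouse left out, and the higher ones 0 to 1. No paired analysis was possible because the groups share no replicate numbers. Tgfb2 had the fewest reads of the members, 28 to 60 per mouse, and so the most counting error relative to its level, and its 95% interval ran from -0.36 to 0.58.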
